A study of Homo sapiens with 4 samples.

Results

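Integrins, laminins and the matrix glycoproteins they bind were followed in KGN cells, a human line from an ovarian granulosa cell tumour, across control or YAP/TAZ siRNA and absence or presence of 8Br-cAMP. The set was a list of 47 genes of these families, drawn up with earlier results of these data known, and each gene was read by the probe set whose mean intensity was highest. Probe sets of a single symbol existed here for 45 of the 47 genes, out of 19775 genes in all, and ITGB6 and LAMA3 were not analysed here. Of the 45, 34 were above the intensity floor of 62.6 on all 4 arrays, 6 on only some arrays and 5 on none. The floor is the median over every probe set and array, and lower values were set to it. The study held 4 groups of 1 array each, all of KGN cells. Group siNC was transfected with control siRNA at 10 nM and left without 8Br-cAMP, and siNC+8Br-cAMP had the same siRNA. Group siYT received a mixture of YAP siRNA and TAZ siRNA, 5 nM of either one, and siYT+8Br-cAMP the same pair. Medium was changed 48 h after transfection, and in the 8Br-cAMP groups the new medium carried 0.5 mM of this cell-permeable cyclic AMP analogue for 24 h. With 1 array per group no difference has a replicate check, and sizes are given without p-values except for an additive fit named as such.

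Integrins are receptors built from an alpha and a beta subunit that anchor the actin cytoskeleton to the extracellular matrix. Laminins are trimers of alpha, beta and gamma chains that form the basement membrane, where nidogens and heparan sulphate proteoglycans link them to collagen IV. In the ovary a basement membrane surrounds the granulosa layer of each follicle. YAP and TAZ are transcriptional co-activators that respond to adhesion and cell tension and act mainly through TEAD factors, while cyclic AMP is the second messenger of the gonadotropins.

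Promoters are printed for 6 of the 8 members that went the same way at 2-fold or more in both knockdown comparisons, the 3 lower ones first. LAMB3, with several annotated starts, and ITGA7 are not shown. The windows are those of RefSeq on GRCh38.p14, 250 bases before to 50 bases after the annotated start, written 5′ to 3′ on the gene's strand. Capitals mark the letters of the TEAD motif, which are GGAATG and on the other strand read CATTCC.
THBS1, chr15:39580829-39581128, plus strand: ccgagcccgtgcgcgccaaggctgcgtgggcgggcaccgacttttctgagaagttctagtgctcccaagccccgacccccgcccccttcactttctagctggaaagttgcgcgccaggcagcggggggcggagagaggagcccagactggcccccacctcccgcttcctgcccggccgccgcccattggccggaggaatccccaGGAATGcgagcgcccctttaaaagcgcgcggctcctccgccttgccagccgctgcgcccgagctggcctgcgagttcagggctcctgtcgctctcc
FBN2, chr5:128538196-128538495, minus strand: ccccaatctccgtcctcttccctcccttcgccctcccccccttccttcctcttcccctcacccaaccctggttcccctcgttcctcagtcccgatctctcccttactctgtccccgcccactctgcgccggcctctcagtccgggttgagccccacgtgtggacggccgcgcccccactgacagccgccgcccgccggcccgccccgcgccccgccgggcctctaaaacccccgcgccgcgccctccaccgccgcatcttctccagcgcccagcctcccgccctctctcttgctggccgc
NID1, chr1:236065041-236065340, minus strand: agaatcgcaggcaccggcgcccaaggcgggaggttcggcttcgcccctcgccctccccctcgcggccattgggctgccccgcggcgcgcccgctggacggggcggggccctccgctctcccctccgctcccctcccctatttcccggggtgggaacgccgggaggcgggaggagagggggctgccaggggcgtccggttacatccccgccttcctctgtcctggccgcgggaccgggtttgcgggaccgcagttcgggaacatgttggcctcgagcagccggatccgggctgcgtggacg
LAMA4, chr6:112254518-112254817, minus strand: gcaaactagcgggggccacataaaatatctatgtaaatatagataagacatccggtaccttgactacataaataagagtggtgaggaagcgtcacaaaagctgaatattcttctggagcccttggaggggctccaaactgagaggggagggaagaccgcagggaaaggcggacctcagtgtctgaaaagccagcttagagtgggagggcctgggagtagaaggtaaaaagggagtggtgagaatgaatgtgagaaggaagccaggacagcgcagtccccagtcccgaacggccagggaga
NID2, chr14:52069010-52069309, minus strand: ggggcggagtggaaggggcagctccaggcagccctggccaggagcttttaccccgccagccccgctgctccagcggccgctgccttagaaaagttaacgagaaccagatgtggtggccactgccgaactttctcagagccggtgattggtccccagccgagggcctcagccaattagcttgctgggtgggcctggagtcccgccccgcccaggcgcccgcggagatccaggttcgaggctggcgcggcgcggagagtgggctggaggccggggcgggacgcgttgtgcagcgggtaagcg
TNC, chr9:115118108-115118407, minus strand: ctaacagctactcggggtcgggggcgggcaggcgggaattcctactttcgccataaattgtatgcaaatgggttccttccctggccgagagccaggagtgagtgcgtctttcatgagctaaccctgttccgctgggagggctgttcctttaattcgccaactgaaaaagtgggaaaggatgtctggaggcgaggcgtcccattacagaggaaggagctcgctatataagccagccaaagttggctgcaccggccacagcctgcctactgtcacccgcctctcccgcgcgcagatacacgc
Of these 6 windows only that of THBS1 held the TEAD letters, with their first base at -46 from the start. Promoters were matched by symbol for 35 of the 45 measured members, with 46 windows. The TEAD letters stood in 8 of the 46, or 17.4%, against 14.0% of all 35116 promoters of that length. Besides THBS1 they were found for FBN1, ITGA10, ITGA5, ITGB1, LAMA2, SPARC and THBS2. The cyclic AMP response element TGACGTCA, which reads the same on both strands, was in 1 of the 46 windows (2.17%), that of FN1, against 1.85% of all promoters. The 2 motifs share no overlap in these windows. A match is a description of the letters and not of binding. Base composition differed among the printed windows, with a GC content of 70% for THBS1, 72.7% for FBN2 and 74.7% for NID1, which were lower after knockdown. It was 51.3% for LAMA4, 69% for NID2 and 57.3% for TNC, which were higher, and the median over all promoters was 58.7%. The windows of LAMB3, also higher but not printed, held 53.7% to 61.3%. A link between GC content and direction was not tested.

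The arrays were checked on the siRNA targets, on marker genes and on control transcripts. YAP1 read 4915 and 4772 on the control arrays, without and then with 8Br-cAMP, and 1295 and 1412 on the knockdown arrays. WWTR1, which encodes TAZ, read 5366 and 7048, then 1028 and 1154. Where 4 readings are given below they follow this order. Nothing in the labels says whether the 4 samples came from separate cultures. Of 10 measured granulosa markers 7 were above the floor on all 4 arrays, while FSHR, AMHR2 and NR5A1 were below it on all 4. None of 5 endothelial, 4 leukocyte and 4 epithelial markers was above the floor on all 4 arrays, and the endothelial genes CDH5 and VWF were below it on all 4. Of the other endothelial genes PECAM1 read 43.5, 169, 381 and 156, KDR 287, 247, 261 and 27.9, and TEK 131, 45.7, 38.6 and 10.9. The 5 endothelial readings summed to 482, 479, 746 and 219, and their part in the values below was not tested. Of 3 theca or Leydig markers INSL3 was above the floor on all 4 arrays, and CYP17A1 and LHCGR were below it on all 4. The ratio of 3' to 5' signal of ACTB was 1.35 on the siYT+8Br-cAMP array against 1.07 to 1.14 on the others, and that of GAPDH 1.13 against 0.888 to 0.962. Arrays measure RNA of the whole culture, so fewer cells making a transcript and less transcript per cell cannot be told apart. Intensities of different probe sets are not on a common scale and are compared only within a probe set. The spread of a log2 difference between probe sets of 1 gene gave a yardstick of probe error. It was taken over 7501 probe sets above 4 times the floor (250) on all 4 arrays, so it need not hold for weaker probe sets. Its SD was 0.39 for knockdown without and 0.54 with 8Br-cAMP. For 8Br-cAMP the SD was 0.37 with control siRNA and 0.53 after knockdown. Variation between cultures is not in it.

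**Figure D1:**
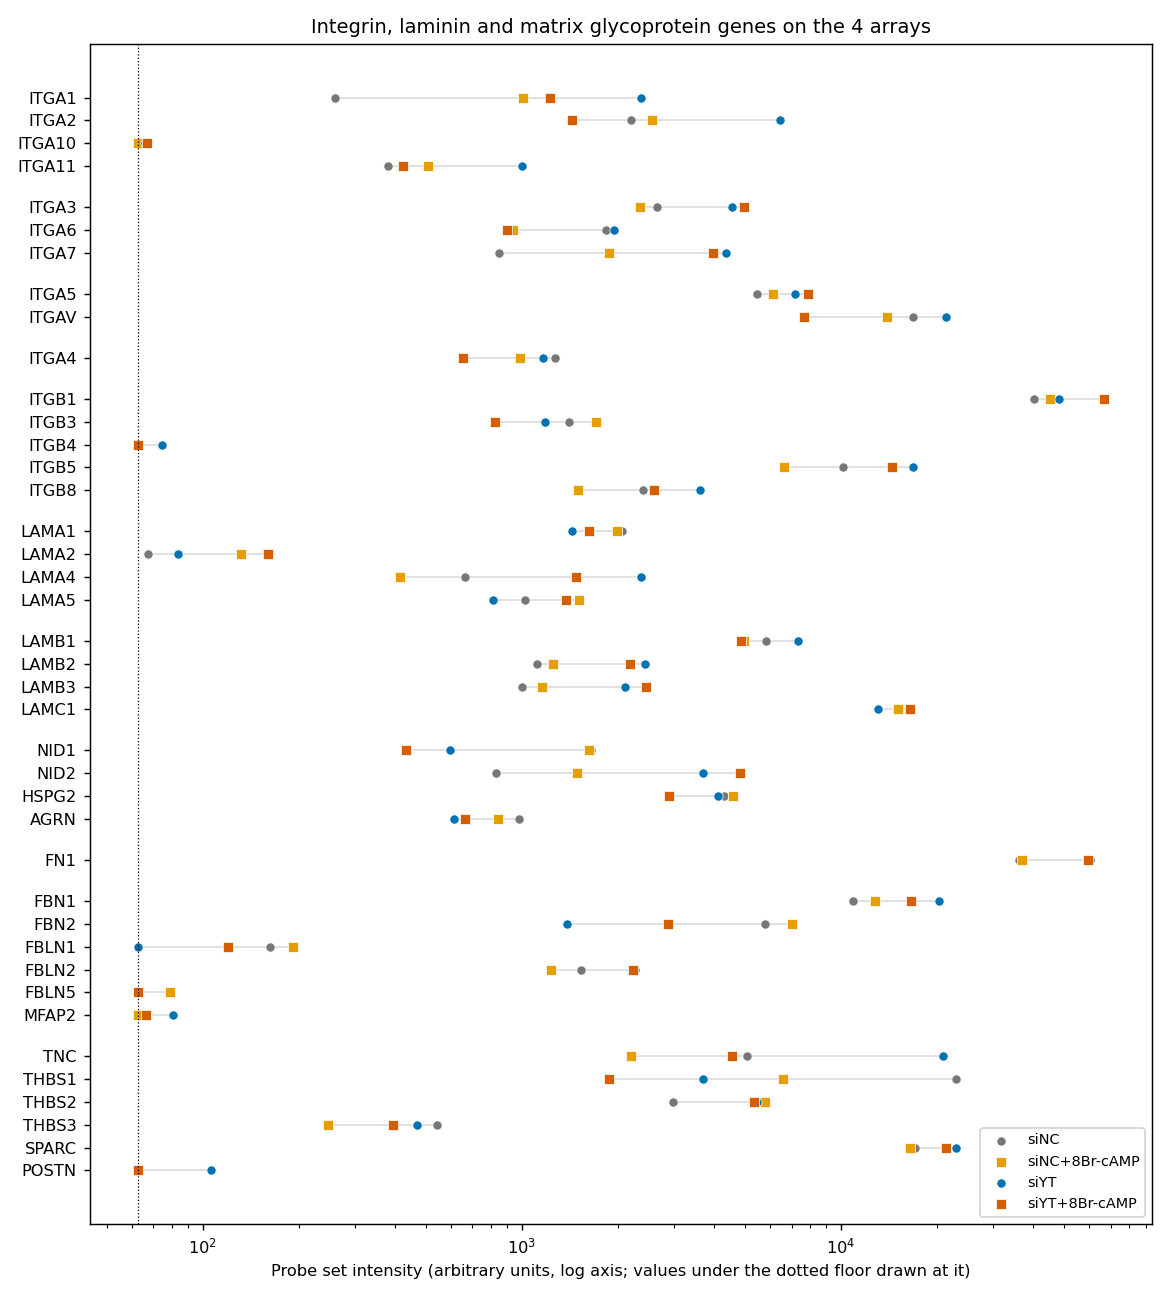
Intensity of the 40 members with signal on any array, 1 row per gene grouped by role, on a log axis, with 1 point for each of the 4 arrays and the floor of 62.6 as a dotted line. THBS1 is highest in siNC (22894) and lowest in siYT+8Br-cAMP (1880), and TNC stands out in siYT (20922).

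The matrix genes divided between higher and lower readings after YAP/TAZ knockdown. By their representative probe sets, 5 members were at least 2-fold higher both without and with 8Br-cAMP. They were the laminin chains LAMA4 and LAMB3, the basement membrane linker NID2, the laminin receptor subunit ITGA7 and the matricellular protein TNC. THBS1, the microfibril protein FBN2 and the other nidogen, NID1, were at least 2-fold lower in both by their representative probe sets. Averaged over all probe sets only 1 of them, THBS1, was 2-fold lower in both, and it was the only member lower in either. That average includes probe sets below the floor on every array, which add a difference of 0. NID1 and FBN2 both have such a probe set, so their smaller averages need not mean that probe sets disagree. Of the higher members, LAMB3 and NID2 had a single probe set, and the other ITGA7 probe set was past 2-fold in both comparisons. With 8Br-cAMP another LAMA4 probe set differed by only 0.42, and another TNC probe set was below the floor on both arrays. LAMA4 and TNC were thus 2-fold higher in both by some of their probe sets and not all. The other laminins, the main integrin beta subunit ITGB1, fibronectin and SPARC differed by less than 2-fold in at least one of the comparisons. Without 8Br-cAMP 9 of the 40 members with signal on any array were 2-fold higher (22.5%), against 7.4% of the 14361 genes compared in all, and 4 were lower (10%, against 6.16%). With 8Br-cAMP 7 were higher (17.5%, against 6.88%) and 4 lower (10%, against 9.66%), the last share being near that of all genes. In both comparisons 5 members were higher, against 2.45% of genes, and 3 lower, against 2.87%. These counts include members that passed the floor only where they were high, so they describe the list and test nothing. The median difference over the 40 was 0.35 without and 0.09 with 8Br-cAMP, against 0 and 0 over all genes compared. By any amount 27 of the 40 were higher without 8Br-cAMP (67.5%, against 48.1% of all genes). In both comparisons 19 were higher (47.5%, against 28.7%) and 10 were lower (25%, against 28.7%), the last share being near that of all genes.

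**Figure D2:**
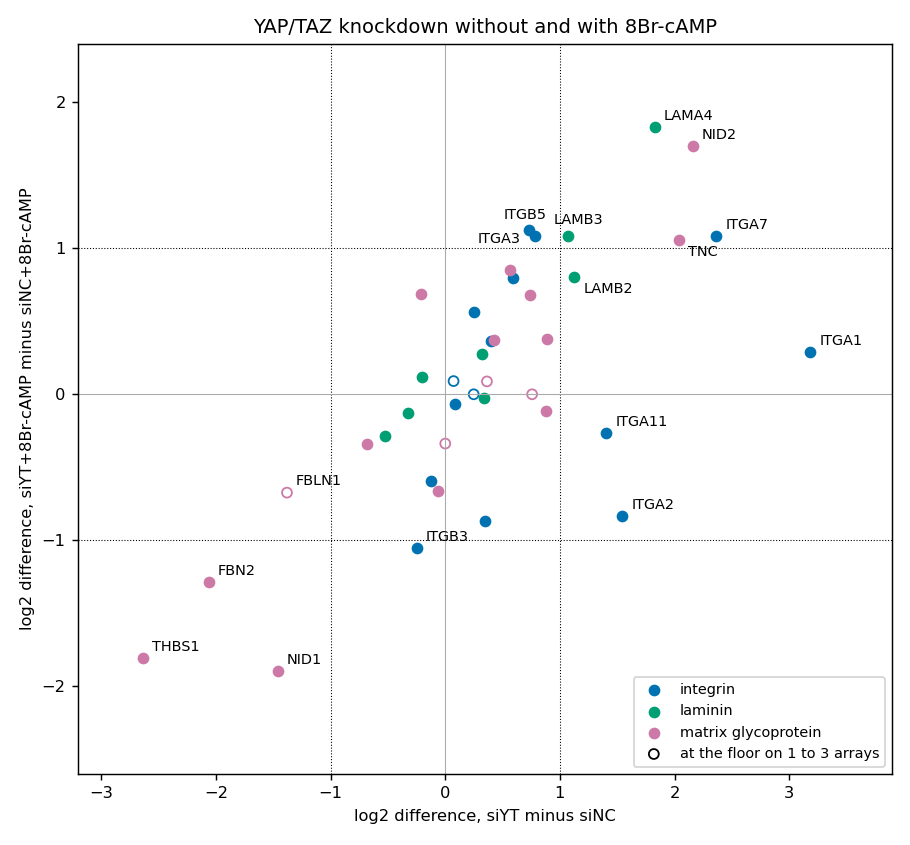
Log2 difference after YAP/TAZ knockdown without 8Br-cAMP (x axis) and with it (y axis) for the 40 members, coloured by family, with dotted lines at 2-fold and open circles for genes at the floor on some arrays. LAMA4, NID2, ITGA7, TNC and LAMB3 lie in the upper right corner, THBS1, FBN2 and NID1 in the lower left, and ITGA1, ITGA2 and ITGA11 far to the right at a y value of 0.29 or less.

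An additive limma fit of both factors had 1 residual degree of freedom per gene, from the difference of the 2 knockdown differences. The fit combined this error with a prior variance drawn from all genes entered, worth 4.6 degrees of freedom over the 14361 genes. The SE and p-values below thus rest largely on variance shared between genes. Fitted over all 14361 genes it called 0 members for knockdown at a Benjamini-Hochberg level of 0.05, and 0.251% of genes higher and 0.634% lower. At an unadjusted p of 0.05 it called 12 members higher and 4 lower, against 9.85% and 9.98% of genes. THBS1 had a main effect of -2.22 ± 0.31 (SE), LAMA4 of 1.83 ± 0.26 and NID2 of 1.93 ± 0.28, each with an adjusted p of 0.0511. Over only the 10791 genes with signal on every array, a choice made after seeing that result, the same fit called ITGA7, LAMA4, NID2 and TNC higher and THBS1, FBN2 and NID1 lower (1.82% and 2.43% of genes). With a variance trend over all genes, which was not planned either, the same 7 were called (1.61% and 1.85% of genes). The adjusted p of THBS1 was 0.0144 and 0.00977 in these 2 limma fits, so the calls depend on the genes and the prior variance entered.

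8Br-cAMP went with fewer differences at 2-fold than knockdown did. By representative probe sets, TNC was the only member at least 2-fold lower with 8Br-cAMP both with control siRNA and after knockdown. Its second probe set was not lower with control siRNA (0.24, against the floor), and averaged over probe sets no member was 2-fold lower in both. No member was 2-fold higher in both. THBS1 and THBS3 were lower with control siRNA, where ITGA1 and ITGA7 were higher. After knockdown ITGA2, ITGA11, ITGAV and ITGA6 were lower together with TNC, and FBN2 was higher. With control siRNA 2 of the 40 were higher (4.37% of all genes were) and 3 lower (5.26%). With the floor 4 times lower, 7 were higher and 4 lower with control siRNA, and averaged over probe sets 1 and 1. After knockdown 1 was higher, against 5.1% of genes, and 5 were lower (12.5%, against 10%), which is near the share of all genes. The lower floor gave 3 and 7 there, and the average 0 and 4. Shares of all genes were not computed for the lower floor or the average, so these counts describe the members alone. In both comparisons 0 were higher (1.48% of genes) and 1 was lower (2.11%). The medians over the 40 were 0.00 with control siRNA and -0.19 after knockdown, against 0 and 0. The additive limma fit called 0 members for 8Br-cAMP (0.0905% of genes higher and 0.0279% lower), and 2 higher and 4 lower at an unadjusted p of 0.05, shares near the 6.23% and 9.32% of all genes. Over genes with signal on every array it again called 0 (0.806% and 0.788% of genes), and 1 higher and 5 lower unadjusted, against 7.12% and 11.5% of genes. With the unplanned variance trend it called 1 lower, TNC, and 0 higher (0.376% and 0.62% of genes). The limma adjusted p of TNC was 0.0367 there, against 0.14 without the trend and 0.0579 over genes with signal on every array. The knockdown and 8Br-cAMP comparisons share arrays, so their values for a gene are not independent.

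**Figure D3:**
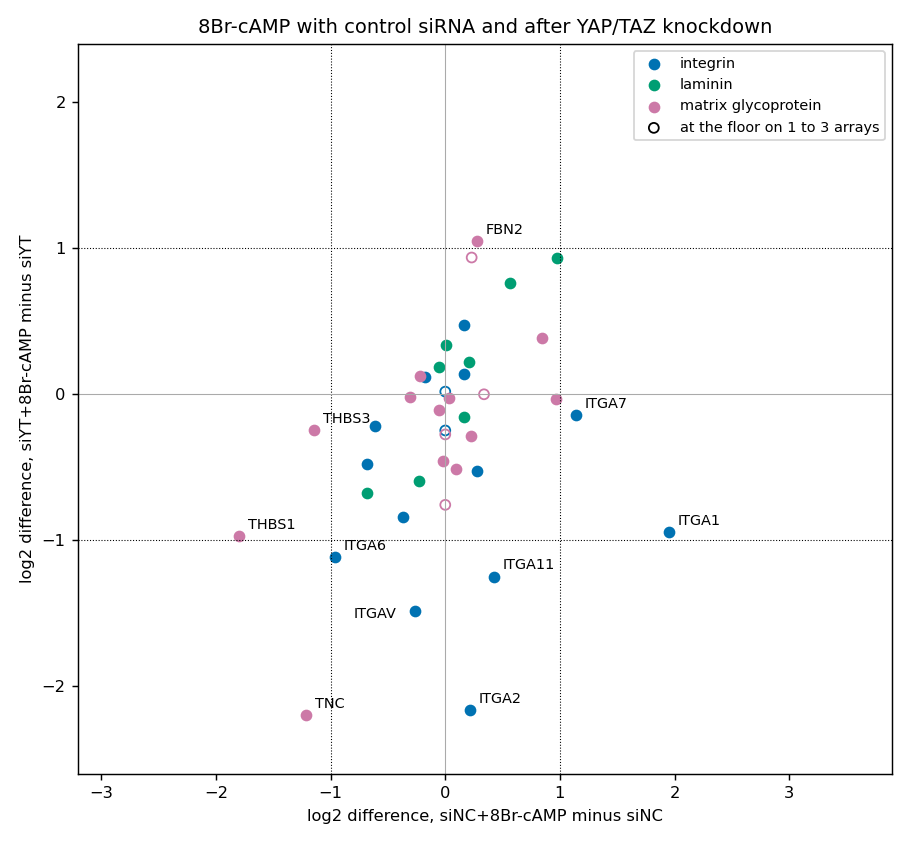
Log2 difference with 8Br-cAMP after control siRNA (x axis) and after YAP/TAZ knockdown (y axis) for the 40 members, coloured by family, with dotted lines at 2-fold and open circles for genes at the floor on some arrays. TNC lies in the lower left corner, ITGA2 and ITGAV lie low near an x value of 0, and ITGA1 lies to the right and below 0 on the y axis.

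The collagen-binding subunits ITGA1, ITGA2 and ITGA11 had their highest reading in siYT, by their representative probe sets. ITGA1, which pairs with ITGB1 as a receptor for collagens, read 260, 1006, 2365 and 1229. Either agent alone thus went with a higher reading, 9.09-fold for knockdown and 3.87-fold for 8Br-cAMP, while both together read 4.73-fold above siNC and below siYT. Counting ITGA1 itself, 13 of the 14361 genes were at least as high in the knockdown comparison without 8Br-cAMP. ITGA2, the alpha subunit of another collagen receptor, read 2205, 2561, 6438 and 1439 in the same order of arrays. It was 2.92-fold higher after knockdown without 8Br-cAMP and 1.78-fold lower with it, and 8Br-cAMP after knockdown went with a 4.47-fold lower reading. ITGA11, a receptor subunit for fibrillar collagen on mesenchymal cells, read 380, 509, 1005 and 423, 2.65-fold higher after knockdown without 8Br-cAMP and 1.20-fold lower with it. ITGA10 stayed between 31.0 and 66.7 and had no measurable difference.

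Other probe sets of these subunits gave some of the same pattern and not all of it. The other ITGA2 probe set above the floor read 208, 280, 953 and 411, again highest in siYT, but it was higher after knockdown in both conditions (log2 2.20 and 0.56). A second ITGA1 probe set read 187, 463, 1087 and 687, with the same order of the arrays. The third ITGA1 probe set read 65.1, 113, 421 and 529, so that it was higher after knockdown both without (2.69) and with (2.23) 8Br-cAMP. The second ITGA11 probe set was at the floor in siNC and read 91.2, 122 and 181 on the other arrays, highest in siYT+8Br-cAMP. The siYT+8Br-cAMP array, on which ITGA1, ITGA2 and ITGA11 read below siYT, is the one with the higher 3' to 5' ratio of control transcripts, whose part in these values was not tested.

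In the difference of differences (knockdown with minus knockdown without 8Br-cAMP), 5 members were past 2-fold downwards (12.5%, against 9.71% of genes) and 0 upwards (against 5.47%). The share of lower members was near that of all genes. With the floor 4 times lower 11 were lower and 3 higher, and the share of all genes at that floor was not computed. The 5 were integrin alpha subunits, which was not tested as a pattern. The values were -2.90 for ITGA1, -2.38 for ITGA2, -1.67 for ITGA11, -1.28 for ITGA7 and -1.22 for ITGAV. Averaged over its probe sets, ITGA11 came to -0.55 and ITGA7 to -0.63, under 2-fold, while ITGA1 (-1.78) and ITGA2 (-2.01) stayed past it. For ITGA11 the average includes a probe set below the floor on every array, which added 0. For scale, the SD between probe sets of 1 gene was 0.60 for this quantity, again over probe sets above 4 times the floor. No test across arrays exists for this quantity in a design of 4 arrays.

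**Figure D4:**
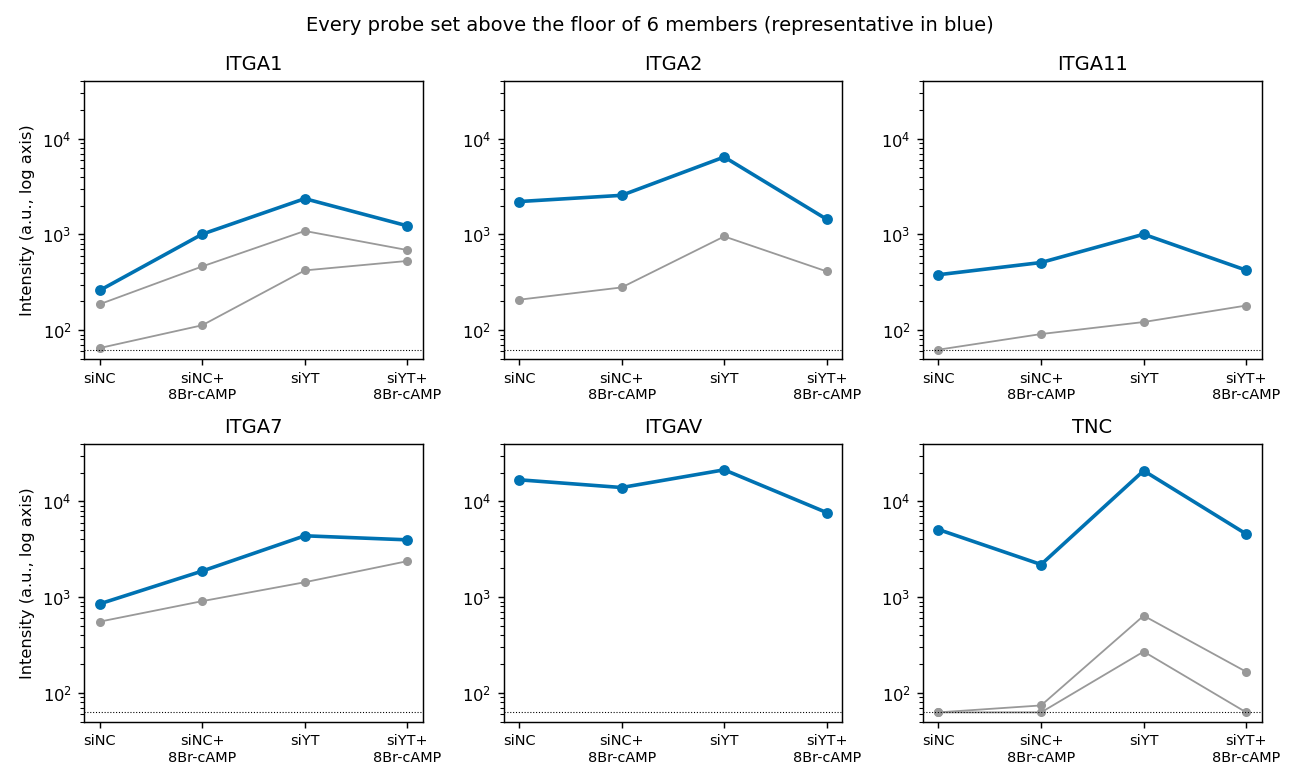
Intensity on a log axis across the 4 arrays for every probe set above the floor on at least 1 array of ITGA1, ITGA2, ITGA11, ITGA7, ITGAV and TNC, with the representative probe set in blue, the others in grey and the floor dotted; lines only join the points of 1 probe set. The blue lines of ITGA2 and TNC peak in siYT at 6438 and 20922, and the second ITGA7 probe set climbs to 2375 in siYT+8Br-cAMP where the blue one does not.

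Of the laminin-binding subunits, ITGA7, known from muscle, differed most after knockdown without 8Br-cAMP. It read 850.3, 1872, 4373 and 3967. Knockdown differences were 5.14-fold without and 2.12-fold with 8Br-cAMP. The other ITGA7 probe set read 555, 908, 1431 and 2375 and gave 2.58-fold and 2.62-fold, so the 2 probe sets shared the direction but not the dependence on 8Br-cAMP. ITGA3, the partner of ITGB1 in the main epithelial laminin receptor, read 2650, 2340, 4565 and 4966, 1.72-fold and 2.12-fold higher after knockdown. ITGA6 was lower on both 8Br-cAMP arrays. It read 1837, 940, 1947 and 898, which is 1.95-fold and 2.17-fold lower with 8Br-cAMP, and its knockdown differences were 0.08 and -0.07. Its second probe set was lower with 8Br-cAMP as well, by log2 -0.35 and -1.20, but it was also 1.75-fold lower after knockdown with 8Br-cAMP.

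RGD-binding subunits recognise fibronectin, vitronectin and related ligands. ITGA5, the fibronectin receptor subunit, read 5437, 6106, 7152 and 7880 and differed by less than 1.5-fold in every comparison. ITGAV, which pairs with several beta subunits, read 16810, 13958, 21367 and 7633, so that siYT+8Br-cAMP alone stood low. With 8Br-cAMP it was 2.80-fold lower after knockdown and 1.20-fold lower with control siRNA, as read by its only probe set. ITGA4, which binds fibronectin and VCAM1, read 1271, 985, 1168 and 652 with no difference at 2-fold. Its other 3 probe sets above the floor all read higher after knockdown without 8Br-cAMP, by log2 0.14 to 1.29, where the representative one read -0.12. ITGA8 and ITGA9 were below the floor on all 4 arrays.

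ITGB1, the common beta subunit, read 40385, 45135, 48106 and 66768. It was 1.19-fold and 1.48-fold higher after knockdown, and 2 other probe sets above the floor gave log2 0.59 and 0.61 without and 0.40 and 0.59 with 8Br-cAMP. ITGB5, a partner of ITGAV, read 10145, 6629, 16835 and 14448, which is 1.66-fold and 2.18-fold higher. Its probe sets disagreed in size, since a second one was 4.33-fold and 6.06-fold higher while the other 2 gave 0.09 and 0.16 without 8Br-cAMP, and with it 0.11 and, the other way, -0.54. ITGB8, another ITGAV partner, read 2402, 1495, 3612 and 2596, with both knockdown arrays above their controls (0.59 and 0.80). ITGB3 read 1408, 1704, 1184 and 822, a 2.07-fold lower reading after knockdown with 8Br-cAMP. That difference was 0.03 as the mean over its probe sets, so ITGB3 has no settled direction. ITGB4, the hemidesmosome subunit that pairs with ITGA6, was above the floor in siYT alone, at 74.4.

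Of the laminin chains, LAMA4, found in vessel and mesenchymal basement membranes, read 666, 415, 2365 and 1477. It was 3.55-fold higher after knockdown without and 3.56-fold with 8Br-cAMP, and 1.61-fold and 1.60-fold lower with 8Br-cAMP. A second LAMA4 probe set, below the floor on both control arrays, was at least 5.57-fold and at least 4.72-fold higher after knockdown. Another LAMA4 probe set read 121, 171 and 161 on the last 3 arrays and was at the floor in siNC, at least 2.74-fold higher after knockdown without but 1.34-fold with 8Br-cAMP, and at least 1.93-fold higher with 8Br-cAMP after control siRNA. All 3 LAMA4 probe sets with signal carry the suffix for sets shared between transcripts, and the 2 others were below the floor on all 4 arrays. LAMB3, a chain of the epithelial laminin-332 read 1002, 1157, 2104 and 2448. Knockdown went with 2.10-fold and 2.12-fold higher readings, and 8Br-cAMP with a difference of 1.16-fold at most. LAMB2 read 1116, 1254, 2434 and 2188, 2.18-fold and 1.75-fold higher after knockdown.

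The chains of the embryonic and widespread laminins differed less. LAMA1 read 2060, 1982, 1432 and 1626, slightly lower after knockdown (-0.52 and -0.29). LAMA5 read 1021, 1509, 813 and 1379, higher with 8Br-cAMP by 0.56 and 0.76. LAMB1, between 4873 and 7344, and LAMC1, the gamma chain shared by most laminins, between 13034 and 16455, stayed under 2-fold in every comparison. LAMA2, the muscle laminin chain, read 67.2, 132, 83.9 and 160, near the floor, and was 1.96-fold and 1.91-fold higher with 8Br-cAMP. Of the 8 chains, 3 were thus 2-fold higher after knockdown without 8Br-cAMP (7.4% of all genes were) and 2 with it (6.88%). In either comparison 0 were lower, against 6.16% and 9.66% of all genes, which for so few chains is near those shares.

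The paired nidogens went opposite ways. NID1 read 1644, 1620, 597 and 434, 2.75-fold and 3.73-fold lower after knockdown. NID2 read 828, 1489, 3700 and 4843, 4.47-fold and 3.25-fold higher. The control and knockdown arrays did not overlap for either gene, but the share of all genes for which this holds was not counted. A second NID1 probe set read 491, 501, 258 and 273, 1.90-fold and 1.84-fold lower, and NID2 had a single probe set. The proteoglycan perlecan, HSPG2, read 4301, 4586, 4121 and 2893, and agrin, AGRN, read 978, 841, 611 and 665. HSPG2 differed by -0.06 and -0.66 after knockdown and AGRN by -0.68 and -0.34, and each had 1 probe set that went the other way (HSPG2 0.64 with 8Br-cAMP, AGRN 1.19 without).

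Fibronectin, FN1, read 36145 and 37025 on the control arrays and 60418 and 59348 after knockdown, 1.67-fold and 1.60-fold higher, and 8Br-cAMP went with 1.02-fold in either state. Of 6 other FN1 probe sets above the floor, all 6 were higher after knockdown without 8Br-cAMP and 5 with it. The largest difference was 3.27-fold and 2.92-fold, from a probe set that read 743, 529, 2428 and 1547.

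Among the elastic fibre genes only FBN2 was called at 2-fold in both knockdown comparisons. FBN2, the fibrillin of developing tissue, read 5796, 7013, 1386 and 2873, 4.18-fold and 2.44-fold lower after knockdown. 8Br-cAMP after knockdown went with a 2.07-fold higher reading. FBN1, the main fibrillin of adult microfibrils, read 10940, 12742, 20227 and 16562, 1.85-fold and 1.30-fold higher after knockdown. Another FBN1 probe set read 472, 409, 1234 and 254, so that it was 2.62-fold higher without and 1.61-fold lower with 8Br-cAMP. The second FBN2 probe set, below the floor after knockdown, was at least 1.76-fold and at least 1.41-fold lower. FBLN1, a fibulin that binds fibronectin and laminin, read 163 and 191 on the control arrays, below the floor in siYT and 120 in siYT+8Br-cAMP. It was at least 2.60-fold lower without 8Br-cAMP and 1.60-fold with it. Another FBLN1 probe set read 133, 146 and 83.6 and was below the floor in siYT+8Br-cAMP instead. It was 1.59-fold lower after knockdown without and at least 2.33-fold with 8Br-cAMP. A further FBLN1 probe set read 124, 109 and 73.0, also below the floor only there, 1.70-fold and at least 1.74-fold lower. FBLN2 read 1527, 1236, 2260 and 2229, higher by 0.57 and 0.85. FBLN5 and MFAP2 were at most 79.1 and 80.6, and elastin (ELN), EMILIN1 and MFAP5 were below the floor on all 4 arrays.

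Among the matricellular proteins, THBS1, an adhesion-modulating glycoprotein known as a YAP/TAZ target in other cells, read 22894, 6591, 3690 and 1880. Each agent alone went with a lower reading, 6.20-fold for knockdown and 3.47-fold for 8Br-cAMP, and both together were 12.2-fold below siNC. Counting THBS1 itself, 40 of the 14361 genes were at least as low in that combined comparison. All 6 other THBS1 probe sets with signal read lower after knockdown, by log2 -0.21 to -3.52 without 8Br-cAMP. With 8Br-cAMP the spread was wide, from -0.32 to -4.62, some against the floor, and on the siYT+8Br-cAMP array 3 probe sets that read 18552, 14019 and 760 in siNC read 281, 2730 and 162. The effect of 8Br-cAMP with control siRNA was seen in probe sets marked as shared between transcripts. The strongest THBS1 probe set without that mark read 1391 and 1543, a difference of 0.15.

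TNC, tenascin-C, read 5082, 2191, 20922 and 4563. Knockdown went with 4.12-fold and 2.08-fold higher readings and 8Br-cAMP with 2.32-fold and 4.58-fold lower ones, so that both together lay within 1.11-fold of siNC. A second TNC probe set read 640 in siYT and 166 in siYT+8Br-cAMP against 28.0 and 74.0 on the control arrays. By that probe set 8Br-cAMP did not go with a lower reading after control siRNA, and both together were at least 2.65-fold above siNC. The third TNC probe set was above the floor in siYT alone (270). The lower TNC reading with 8Br-cAMP after control siRNA thus rests on the representative probe set. THBS2 was lowest in siNC (2970) and lay between 5330 and 5784 elsewhere. THBS3 was lowest in siNC+8Br-cAMP (246) against 396 to 544, 2.21-fold lower with 8Br-cAMP after control siRNA. SPARC, a collagen-binding glycoprotein, read 17052, 16431, 22946 and 21296, 1.35-fold and 1.30-fold higher after knockdown, while its other probe set gave 1.74-fold and 2.08-fold. Periostin, POSTN, was above the floor in siYT alone (106).

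**Figure D5:**
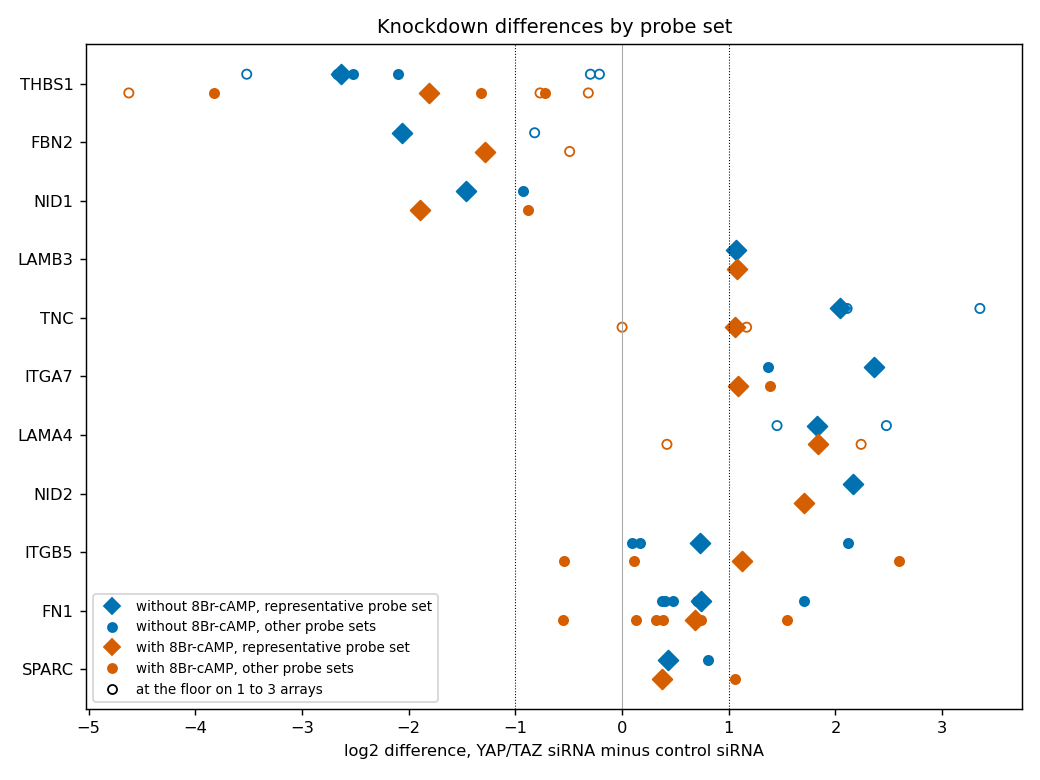
Log2 knockdown difference of every probe set above the floor on at least 1 array for 11 members, without 8Br-cAMP in blue and with it in orange; diamonds are representative probe sets, circles the others, open ones at the floor on some arrays, and dotted lines mark 2-fold. THBS1, FBN2 and NID1 lie to the left of 0 throughout, and ITGB5 and FN1 spread widely to both sides of 2-fold.

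Against siNC, the combination of knockdown and 8Br-cAMP left 6 members at least 2-fold higher (15%, against 11% of genes) and 5 lower (12.5%, against 14%), shares near those of all genes. The higher members were NID2 (5.85-fold), ITGA1 (4.73-fold), ITGA7 (4.67-fold), LAMB3 (2.44-fold), LAMA2 (2.38-fold) and LAMA4 (2.22-fold). Besides THBS1, the lower ones were NID1 (3.78-fold), ITGAV (2.20-fold), ITGA6 (2.05-fold) and FBN2 (2.02-fold).

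Genes that work beside the members were taken from a list of 70, of which 66 were measured and 58 had signal on any array. Of the 58, 0 were 2-fold higher in both knockdown comparisons (2.45% of all genes were) and 1 was lower in both (2.87%). The lower one was FERMT1, a kindlin that activates integrins. For a list of this size both counts are near the shares of all genes. The difference between the lists was not tested. FERMT1 read 470.4, 231, 233 and 72.1, and it was also the only one 2-fold lower with 8Br-cAMP in both (2.11% of all genes were). PARVA, a parvin of the integrin-linked kinase complex, read 3092, 2535, 1557 and 1227, with differences of -0.99 and -1.05 after knockdown, and PARVB came to -0.80 and -1.37. Of 20 talin, kindlin and adaptor genes compared, 8 were lower by any amount in both knockdown comparisons (40%, against 28.7% of all genes) and 5 higher (25%, against 28.7%). Among the 5 higher adaptors were TNS1 (1.22 and 0.41) and BCAR1 (0.90 and 0.76). TGFBI, a secreted integrin ligand, read 7357, 12207, 16572 and 23581, with 1.17 and 0.95 after knockdown. CD44, a hyaluronan receptor, read 13200, 13675, 26284 and 11858, highest in siYT as ITGA2 and TNC were. It is an example only, since matrix receptors on the list varied. SDC3 was also highest in siYT (1531), while SDC1 was lowest there (563).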

How the data were processed

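Deposited with the series were linear intensity values per probe set for 4 Affymetrix HG-U133 Plus 2.0 arrays. Per the submitters' processing notes the authors ran RMA through Affymetrix Expression Console (the version was not given in the sources used here). These numbers do not look like RMA output, since their 2% trimmed mean was 500.1 on each array and distributions differed, as scaled MAS5 signal gives, so background correction and summary stay unknown. Of 54675 probe sets, 41097 had 1 gene symbol, 1801 several and 11777 none here. Only the first kind was used, and 41043 symbols matched by gene identifier, with 0 changed. Values were floored at 62.6 and taken as log2 without further normalization. Comparisons took the 14361 genes with signal above it on any array, called at 2-fold. Folds against an array at the floor are lower bounds. The number of arrays limits precision. Differences were computed with pandas 2.3.3, and the additive fit used limma 3.58.1 in R 4.3.3 and was run on simulated data. These held additive knockdown effects, equal noise, no floor and no difference of differences beyond noise. That run therefore checked the code and not the error of the fit in these data. Members, gene lists, tests and the naming rule were chosen with earlier results of these data known. Named in full were members at 2-fold the same way in both comparisons of a factor or past it in the difference of differences. Alternatives were other floors, probe set choices, between-array normalizations and a 1.5-fold call.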

Additional observations from a re-analysis of the deposited data

Results flagged for a closer look

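These genes were singled out because they differed by at least 1.5-fold in opposite directions under the same contrast in 2 states, on 1 array each. None of these differences was tested. ITGA1 was higher with 8Br-cAMP after control siRNA (log2 1.95) and lower after knockdown (-0.94), a difference of differences of -2.90. Its other probe sets gave 1.31 and -0.66, and 0.79 and 0.33, so the third did not change direction. ITGA2 was higher after knockdown without 8Br-cAMP (1.55) and lower with it (-0.83), a difference of differences of -2.38, and its other probe set gave 2.20 and 0.56, without the change of direction. Of the partner genes, the syndecan SDC1 differed by -1.21 after knockdown without 8Br-cAMP and by 0.87 with it, a difference of differences of 2.08. The microfibril protein MFAP4 was higher with 8Br-cAMP after control siRNA (0.97) and lower after knockdown (-0.82), a difference of differences of -1.78.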

How the results depend on the processing

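No member called at 2-fold changed direction under cyclic loess, quantile normalization or either other floor. Members at 2-fold in both knockdown comparisons stayed at 5 higher and 3 lower under those 4 settings and without shared probe sets. In that last setting LAMA4 had no probe set above the floor (0.00), and ITGB5 (2.11 and 2.60) stood in its place. Called differences that reversed were ITGB3 for knockdown with 8Br-cAMP (0.0293 as the mean over probe sets, 0.69 without shared probe sets) and THBS1 for 8Br-cAMP with control siRNA (0.15 without shared probe sets). The causes were not tested. For the other floors, probe set choices, normalizations and the 1.5-fold call, shares of all genes were not computed. Counts under those settings therefore describe the members alone. With the floor 4 times lower, counts were 7 lower for knockdown with 8Br-cAMP, 7 and 3 higher for 8Br-cAMP with control siRNA and after knockdown, 10 higher for the combination, and 3 higher and 11 lower for the difference of differences. The mean over probe sets included those below the floor on every array. With this mean 1 member was lower for knockdown without and 1 with 8Br-cAMP and 1 in both. For 8Br-cAMP with control siRNA 1 was higher and 1 lower, after knockdown 0 were higher, 0 were lower in both 8Br-cAMP comparisons, and 3 were lower for the combination. Cyclic loess gave 2 higher for 8Br-cAMP after knockdown, 1 higher for the difference of differences and 2 lower in both 8Br-cAMP comparisons, and quantile normalization 2 and 1 for the first pair. At 1.5-fold, knockdown gave 16 higher without and 12 higher and 9 lower with 8Br-cAMP, and 10 higher in both. 8Br-cAMP gave 5 higher and 7 lower with control siRNA, 4 and 11 after knockdown, and 1 and 4 in both, the combination 12 and 8, and the difference of differences 4 and 10. Without the siYT+8Br-cAMP array, a setting added after seeing the data, the remaining comparisons gave 9 higher and 4 lower for knockdown and 2 higher and 3 lower for 8Br-cAMP. The additive limma fit gave 0 higher and 0 lower for knockdown and 0 lower for 8Br-cAMP, and 0 lower for 8Br-cAMP over genes above the floor on all arrays. No paired analysis was possible because each group held 1 array.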
